A study of Mus musculus with 9 samples.

Results

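The expression of 8 transcription factor genes, grouped here as primed epiblast factors, was compared between P19 NTES7, P19 and R1 cells. The members were Otx2, Pou3f1, Zic1, Zic2, Zic5, Foxd3, Pax6 and Meis1, and not all of them are specific to the primed epiblast. The genes were chosen by name, and 9 names gave 8 genes because Oct6 is an older name of Pou3f1. They were 8 of 19938 genes that had a probe set with 1 gene symbol. Zic5 had 2 probe sets and every other member had 1, and the brightest probe set of a gene stood for it.

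After implantation the mouse epiblast leaves the naive state of the blastocyst and of embryonic stem cells and becomes primed for the germ layers. Otx2 and Pou3f1 are switched on early in this transition and act with Oct4 on enhancers of the postimplantation epiblast. The zinc finger genes of the Zic family, the forkhead gene Foxd3 and the homeobox genes Pax6 and Meis1 are used in the epiblast or in the neural and other tissues that form from it, and Zic1, Pax6 and Meis1 are best known from those later tissues.

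Total RNA of 3 mouse cell lines was hybridised to 3 Gene 1.0 ST arrays each. P19 NTES7 is 1 pluripotent line made from a blastocyst that was cloned with a P19 nucleus. The labels say only that its cells derive from P19, and the name P19 NTES7 was taken from the text and captions that report the arrays. P19 is an embryonal carcinoma line, a tumour counterpart of the early postimplantation embryo, and R1 is a line of embryonic stem cells. All lines were kept in the same serum medium with LIF, the cytokine that holds mouse stem cells undifferentiated. Per the methods, P19 NTES and other pluripotent stem cells grew on mouse embryonic fibroblasts, while no feeder cells are named for P19. The methods call the collected stem cells feeder free, and how completely feeder cells were removed was not tested. Growth on feeders and the contrast of P19 with the other lines cannot be told apart. The cells are bulk samples, in which fewer cells expressing a gene and less RNA per cell cannot be told apart.

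The values were intensities normalized by Robust Multichip Average (RMA), given here as mean ± SD over 3 arrays unless a single array is named. The median of all values was 16.9, and a level under it was taken as near background, since no detection call comes with the values. A fold that uses such a level is not exact. A gene was called where the Benjamini-Hochberg adjusted p of limma over 28853 probe sets was under 0.01 with a fold over 2. Log2 differences carry standard errors. Pou5f1, which encodes Oct4, stood at 1471 ± 199 in P19 NTES7, 2196 ± 109 in P19 and 1470.1 ± 153 in R1 cells. Of 10 markers of pluripotent cells, 9 were above the median in every line and Fut4 was below it in all of them. P19 array 3 had 36 probe sets over 2-fold away from the other P19 arrays, against 11 and 4 for those arrays. R1 array 3 had 124 such probe sets, against 5 and 4 for the other R1 arrays.

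To show the sequence at the members' start sites, promoters of 250 bases before and 50 bases after the start were taken from RefSeq (GRCm38.p6). They were found for 6 of the 8 members, 10 promoters in all, and those of Pou3f1 and Zic2 were not analysed here. Both strands were searched for the OTX homeobox motif TAATCC, the octamer part ATGCAAA, the TCF motif CTTTGAT, the GC box GGGCGG, the CCAAT box and TATAAA. Capitals mark the matches, and no base of a member's promoter lay in 2 matches. The Zic1 promoter at chr9:91365719-91366018 (minus strand) is shown because Zic1 had the largest difference between lines among the members. One Otx2 promoter, at chr14:48665060-48665359 (minus strand), is shown because it held the motif of the OTX factors themselves, and that of Zic5 at chr14:122465609-122465908 (minus strand) because Zic5 was measured by 2 probe sets.
Zic1: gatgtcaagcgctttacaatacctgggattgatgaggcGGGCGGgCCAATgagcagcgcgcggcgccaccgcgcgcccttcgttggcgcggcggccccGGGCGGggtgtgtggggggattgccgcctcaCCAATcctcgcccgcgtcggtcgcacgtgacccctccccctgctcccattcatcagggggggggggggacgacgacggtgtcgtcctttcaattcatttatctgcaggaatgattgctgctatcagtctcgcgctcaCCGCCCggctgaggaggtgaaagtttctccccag
Otx2: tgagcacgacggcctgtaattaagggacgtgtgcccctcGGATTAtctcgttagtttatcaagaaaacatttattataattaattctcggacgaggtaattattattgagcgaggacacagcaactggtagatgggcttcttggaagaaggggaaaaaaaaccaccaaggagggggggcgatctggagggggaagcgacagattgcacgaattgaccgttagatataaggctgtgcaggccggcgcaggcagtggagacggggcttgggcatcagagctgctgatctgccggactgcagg
Zic5: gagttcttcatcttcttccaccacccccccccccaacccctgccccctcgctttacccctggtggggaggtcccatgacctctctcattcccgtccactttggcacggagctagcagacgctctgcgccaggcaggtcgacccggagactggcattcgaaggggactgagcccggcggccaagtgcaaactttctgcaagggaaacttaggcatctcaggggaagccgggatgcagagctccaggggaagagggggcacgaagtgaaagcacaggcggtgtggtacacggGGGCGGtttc
The Zic1 promoter held 3 GC boxes, 2 CCAAT boxes and 31 CpG dinucleotides, and 90.5% of all promoters had that many CpG or fewer. Among 32851 promoters, a GC box was found in 35.7%, a CCAAT box in 37.4% and the OTX motif in 7.06%. The octamer part and the TCF motif, found in 4.63% and 3.73% of all promoters, had no match in the 10 member promoters. TATAAA, found in 13.6% of all promoters, had 1 match, at another of the 4 Otx2 starts. These matches describe letters and not bound sites.

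Otx2, a homeobox factor of the forming primed epiblast and later of the forebrain, was highest in P19 cells. It had intensities of 146, 136 and 130 on the P19 NTES7 arrays, of 170, 210 and 260 on the P19 arrays and of 112, 103 and 91.9 on the R1 arrays. All P19 arrays lay above all P19 NTES7 arrays, and these lay above all R1 arrays. The mean was 137 ± 8.03 in P19 NTES7, 214 ± 45.0 in P19 and 102 ± 10.2 in R1 cells. Otx2 was called higher in P19 than in R1, by 1.05 ± 0.14 on the log2 scale (adjusted p = 5.02e-05). This fold of 2.06 was close to the limit, and the difference was 0.89 without P19 array 3 and 0.97 without R1 array 3, both under it. The drop of 0.62 ± 0.14 in P19 NTES7 against P19 had an adjusted p of 0.00657, but its fold was under 2. P19 NTES7 stood above R1 by 0.43 (adjusted p = 0.0388, 95% interval 0.12 to 0.73), which did not pass the test.

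Pou3f1, the POU factor also known as Oct6, was lower in P19 NTES7 than in the other lines, by less than the fold limit. It had 125, 111 and 101 on the P19 NTES7 arrays, 163, 144 and 158 on the P19 arrays and 165, 164 and 150.0 on the R1 arrays. Every P19 NTES7 array lay below every array of the other lines, while P19 and R1 overlapped. The difference was -0.47 ± 0.11 for P19 NTES7 against P19 (adjusted p = 0.00647) and -0.51 ± 0.11 for P19 NTES7 against R1 (adjusted p = 0.00246). Both passed the p limit with folds under 2, so neither was called. P19 against R1 gave -0.04, with an interval of -0.27 to 0.18 (adjusted p = 0.794).

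The Zic genes encode zinc finger factors of the epiblast and the neural plate. Zic1 had 24.7, 20.1 and 22.8 on the P19 NTES7 arrays, 107, 86.8 and 90.8 on the P19 arrays, and 11.6, 11.8 and 11.9 on the R1 arrays. The P19 arrays stood far above all others, the P19 NTES7 arrays were just above the median of all values, and the R1 arrays were below it. The mean was 22.5 ± 2.28 in P19 NTES7, 94.9 ± 10.8 in P19 and 11.8 ± 0.118 in R1 cells. In P19 NTES7 against P19, Zic1 was called lower by 4.21-fold (log2 difference -2.07 ± 0.11, adjusted p = 3.25e-08). It was called higher in P19 than in R1, by 8.03-fold (log2 difference 3.01 ± 0.11, adjusted p = 2.43e-10). Both calls held in the 16 alternative fits that bear on Zic1. In P19 NTES7 it was 1.91-fold above R1 (adjusted p = 2.61e-05), under the fold limit, and it passed that limit without P19 NTES7 array 2 (log2 difference 1.01). With values under the array median raised to it, this log2 difference was 0.41 (adjusted p = 0.0177 in limma). That of P19 against R1 was 2.49 in the same setting.

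Zic2 had 56.9, 46.4 and 61.4 on the P19 NTES7 arrays, 83.4, 113 and 68.8 on the P19 arrays and 103, 101 and 86.6 on the R1 arrays. All P19 NTES7 arrays were below all others, and P19 and R1 overlapped. Zic2 was not called in any comparison. It differed by -0.67 ± 0.16 in P19 NTES7 against P19 (adjusted p = 0.0110) and by -0.83 ± 0.16 in P19 NTES7 against R1 (adjusted p = 0.00191, 1.77-fold). The difference of P19 against R1 was -0.16, with an interval of -0.51 to 0.19 (adjusted p = 0.510).

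The brighter Zic5 probe set had 91.8, 72.2 and 63.7 on the P19 NTES7 arrays, 238, 231 and 149 on the P19 arrays and 220.4, 215 and 206 on the R1 arrays. Every P19 NTES7 array was low, and P19 array 3 was below all R1 arrays while the other P19 arrays were above them. By this probe set Zic5 was called lower in P19 NTES7, 2.69-fold against P19 (log2 difference -1.43 ± 0.17, adjusted p = 5.23e-05) and 2.85-fold against R1 (log2 difference -1.51 ± 0.17, adjusted p = 1.93e-05). P19 against R1 gave -0.08, with an interval of -0.45 to 0.29 (adjusted p = 0.760).

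The dimmer Zic5 probe set had 30.0, 30.8 and 36.4 on the P19 NTES7 arrays, 42.8, 46.8 and 40.7 on the P19 arrays and 51.4, 49.6 and 44.6 on the R1 arrays. The P19 NTES7 arrays were again below all others, by less. The difference was -0.42 against P19 (adjusted p = 0.0138) and -0.58 against R1 (adjusted p = 0.00113), and neither was called. The Zic5 gene lies on chromosome 14. Of the 10 probe sets next to the brighter set in the order of their numbers, all 10 belonged to genes on chromosome 11, whereas 9 of 10 next to the dimmer set belonged to genes on chromosome 14. For the other members, 9 or 10 of 10 such neighbours were on the member's own chromosome. Which transcripts the brighter set detects was not tested, and the calls of Zic5 rest on it.

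**Figure D1:**
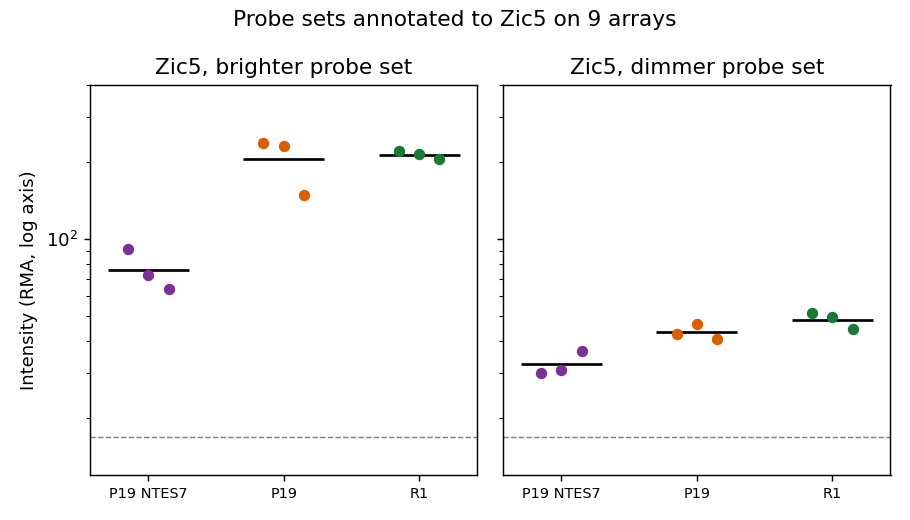
Intensity (RMA, log axis) of the brighter and the dimmer probe set annotated to Zic5, with a point for each of 3 arrays of P19 NTES7, P19 and R1, a bar at the mean and a dashed line at the median of all values, 16.9. In both panels the 3 P19 NTES7 points lie below all others, with means of 75.9 in P19 NTES7, 206 in P19 and 214 in R1 by the brighter set and of 32.4, 43.4 and 48.5 by the dimmer set.

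Foxd3, a forkhead repressor of pluripotent cells and of the neural crest, was low in all lines and had the largest standard error of the members. It had 14.1, 11.3 and 16.7 on the P19 NTES7 arrays, 29.7, 50.0 and 18.5 on the P19 arrays and 24.2, 19.9 and 18.1 on the R1 arrays. The P19 NTES7 arrays were all below the median of all values and below every other array, and P19 array 2 was far above the rest. The mean was 14.0 ± 2.69 in P19 NTES7, 32.7 ± 16.0 in P19 and 20.8 ± 3.13 in R1 cells. In P19 NTES7 against P19, Foxd3 was called lower by 2.18-fold (log2 difference -1.12 ± 0.27, adjusted p = 0.00961). The call was lost in 12 of 16 alternative fits, and over the 16 the adjusted p ran from 0.00064 to 0.158. It was also lost in the methods' one-way test, which is not among the 16. The difference was 0.55 for P19 against R1 (adjusted p = 0.142, interval -0.03 to 1.13) and -0.57 for P19 NTES7 against R1 (adjusted p = 0.151, interval -1.15 to 0.01).

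Pax6, the paired box factor of neural and eye development, was above the median of all values only in R1 cells. It had 10.7, 10.3 and 9.75 on the P19 NTES7 arrays, 11.6, 8.64 and 10.3 on the P19 arrays and 28.8, 28.1 and 22.2 on the R1 arrays. The P19 NTES7 and P19 arrays overlapped near background, and all R1 arrays stood above them. Pax6 was called lower than in R1 in P19 (2.59-fold, log2 difference -1.37, adjusted p = 1.88e-06) and in P19 NTES7 (2.55-fold, log2 difference -1.35, adjusted p = 4.19e-06). P19 NTES7 against P19 gave 0.02, with an interval of -0.26 to 0.30 (adjusted p = 0.934). With values under the array median raised to it, the differences from R1 were -0.66 in P19 and -0.61 in P19 NTES7, and both calls were lost.

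Meis1, a TALE homeobox factor that works with Pbx and Hox proteins, had 15.9, 13.6 and 16.0 on the P19 NTES7 arrays, 9.95, 9.60 and 10.04 on the P19 arrays and 24.1, 22.6 and 18.2 on the R1 arrays. The 3 lines did not overlap, and the P19 NTES7 and P19 arrays were all below the median of all values. It was the only member whose mean was higher in P19 NTES7 than in P19 with an adjusted p under 0.01 (log2 difference 0.62 ± 0.12, 1.53-fold, adjusted p = 0.00198), and its fold was under the limit. With values under the array median raised to it, this difference was 0.05 (adjusted p = 0.682, and from 0.00038 to 0.682 over the alternatives). Meis1 was called lower in P19 than in R1 (2.18-fold, log2 difference -1.12, adjusted p = 4.88e-06). The difference from R1 was -0.37 in the same setting, and the call was lost. P19 NTES7 against R1 gave -0.50 (adjusted p = 0.00542), with no call.

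Fibroblasts were the feeder cells of the stem cell lines but are not named for P19, and the summed level of their markers had the same order of lines as Meis1. The summed intensity of 17 measured fibroblast markers was between 1589 and 1837 on the P19 NTES7 arrays, between 762 and 812 on the P19 arrays and between 2564 and 2841 on the R1 arrays. Of these markers, 2 were below the median of all values in P19 NTES7, 12 in P19 and 1 in R1 cells. Dcn, which encodes decorin of the matrix, stood at 80.6 ± 7.23 in P19 NTES7, 8.45 ± 0.245 in P19 and 232 ± 70.5 in R1 cells. Sparc was the only marker highest in P19, at 389 ± 10.5 in P19 NTES7, 534 ± 35.0 in P19 and 454 ± 10.6 in R1. It was the largest part of the P19 sum, so the sums understate the gap of the remaining markers. Called differences of the 17 were 10 higher in P19 NTES7 than in P19, 13 lower in P19 than in R1 (12 without R1 array 3, where Thy1 was lost) and 5 lower in P19 NTES7 than in R1. The shares of all genes with such calls were 1.44%, 3.85% and 2.84%. Pax6 was also highest in R1, but it stood at 10.3 ± 0.494 in P19 NTES7 and 10.2 ± 1.47 in P19. The part of these cells in the levels of Meis1 and Pax6 was not tested.

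**Figure D2:**
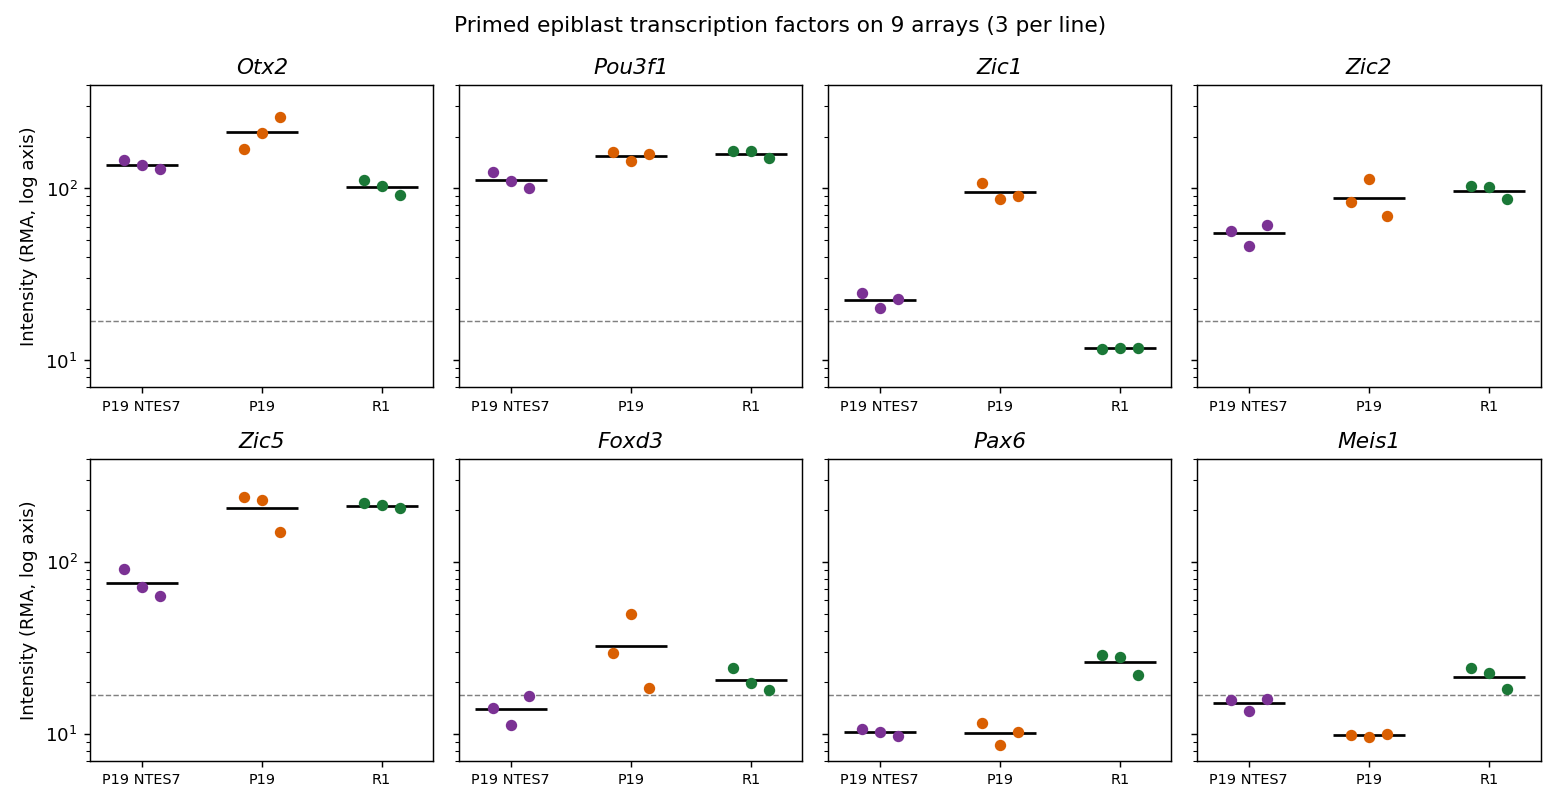
Intensity (RMA, log axis) of each member by its brightest probe set, with a point for each of 3 arrays of P19 NTES7, P19 and R1, a bar at the mean and a dashed line at the median of all values, 16.9. Zic1 is far higher in P19 than elsewhere, Zic5 is low in P19 NTES7, and Pax6 is near background in P19 NTES7 and P19.

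Set side by side, Pou3f1, Zic2, Zic5 and Foxd3 were lowest in P19 NTES7, while Otx2, Zic1 and Meis1 lay between the other lines. Pax6 was near background in both P19 NTES7 and P19. Against P19, 0 members were called higher and 3 lower (Zic1, Zic5 and Foxd3), where the calls over all probe sets made up 2.91%, with 1.55% higher and 1.36% lower. The calls of Zic5 rest on its brighter probe set, and the Foxd3 call was lost in most alternative fits. At an unadjusted p under 0.05 in limma, 1 member was higher and 6 were lower, beside 14.1% and 17.8% of all genes. The difference was below 0 for 6 of the 8, and 7 of the 8 did not overlap between the lines, as 34.4% of all probe sets did not. The median log2 difference of the members was -0.64, beside 0.02 over all genes with 1 symbol.

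In P19 against R1 the members split. Otx2 and Zic1 were called higher and Pax6 and Meis1 lower, where 7.4% of all probe sets were called, 3.7% in each direction. For Pou3f1, Zic2, Zic5 and Foxd3 the arrays of both lines overlapped, and the 4 called members did not overlap, as 45.3% of all probe sets did not. The median difference was -0.06, beside -0.02 over all genes.

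In P19 NTES7 against R1, 2 members were called lower (Zic5 and Pax6) and 0 higher, where the calls over all probe sets made up 4.52%, with 1.99% higher and 2.53% lower. At an unadjusted p under 0.05 in limma, 2 members were higher and 5 were lower, beside 19.4% and 17.5% of all genes. All 8 members were without overlap between these lines, as were 36.6% of all probe sets, and only Otx2 and Zic1 were higher in P19 NTES7. The median difference was -0.54, beside 0.01 over all genes. The 3 comparisons share arrays in pairs, so their values are not independent of each other.

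**Figure D3:**
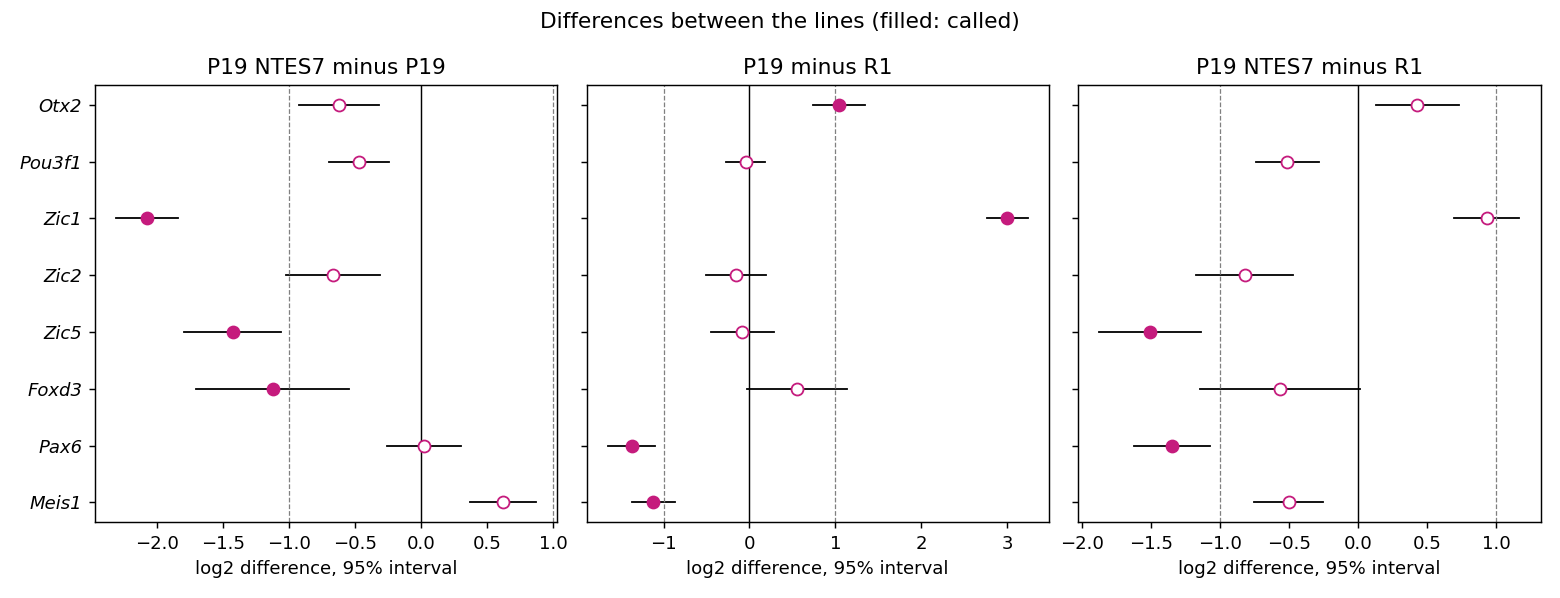
Log2 difference of each member (point) with its 95% interval from limma (line) for P19 NTES7 minus P19, P19 minus R1 and P19 NTES7 minus R1, where filled points were called and dashed lines stand at a fold of 2. Zic1 has the largest difference in the first 2 panels, -2.07 and 3.01, and the intervals of Pou3f1, Zic2, Zic5 and Foxd3 cross 0 in P19 minus R1.

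Other genes of the same roles were counted from fixed lists. Among 16 genes of the formative and primed epiblast, 2 had higher and 3 lower calls in P19 NTES7 against P19, beside 1.44% and 1.38% of all genes. At an unadjusted p under 0.05 in limma, 6 were higher and 7 lower, beside 14.1% and 17.8% of all genes. Their median difference was 0.06, beside 0.02 over all genes, and such a median hides changes in both directions. Fgf8, a growth factor of the primitive streak, was higher in P19 NTES7 (71.2 ± 3.92, against 22.1 ± 2.04 in P19, adjusted p = 1.85e-07). Fgf5, the growth factor most used to mark the postimplantation epiblast, was also higher (41.9 ± 6.01 in P19 NTES7, 20.8 ± 5.55 in P19, adjusted p = 0.00111), a call lost without P19 array 3. The lower genes were the de novo DNA methyltransferase Dnmt3a (76.5 ± 6.64 in P19 NTES7, 343 ± 27.0 in P19, adjusted p = 1.6e-07), Fgf15 and Sall2.

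In P19 against R1, 4 genes of this list were called higher and 4 lower, beside 3.46% and 3.85% of all genes. Without P19 array 3, 5 were called higher, as Sox11 was added. The median difference of the list was 0.02, with 7 genes higher and 7 lower at an unadjusted p under 0.05 in limma. That p was reached by 23.2% of all genes as higher and 20.2% as lower. Dnmt3a was higher in P19 (343 ± 27.0, against 88.2 ± 18.8 in R1, adjusted p = 1.01e-07), as was the SOX factor Sox4 (187 ± 7.43 in P19, 69.4 ± 6.81 in R1, adjusted p = 1.25e-06). Fgf5 was lower in P19 (20.8 ± 5.55, against 73.4 ± 11.7 in R1, adjusted p = 2.85e-06), as was Lef1, a nuclear effector of Wnt signalling (84.8 ± 0.498 in P19, 237 ± 11.7 in R1, adjusted p = 3.26e-07). Fgf5, also an epiblast gene, was thus lowest in the line in which Otx2 and Zic1 were highest. In P19 NTES7 against R1, 3 genes of the list were called higher and 3 lower, beside 1.68% and 2.84% of all genes.

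Naive pluripotency factors moved together between the lines. Of 12 measured, 8 had higher and 1 a lower call in P19 NTES7 against P19, beside 1.44% and 1.38% of all genes. In P19 against R1, 0 were called higher and 11 lower, beside 3.46% and 3.85%. In P19 NTES7 against R1, 0 were called higher and 9 lower, beside 1.68% and 2.84%. Below the median of all values were 1 of these factors in P19 NTES7, 7 in P19 and 0 in R1, so folds that use P19 are often not exact. The median differences of the list were 1.17, -2.79 and -1.67 in these comparisons. Klf4, a Krüppel-like factor downstream of LIF, was at 41.5 ± 4.25 in P19 NTES7, 13.04 ± 0.711 in P19 and 126 ± 4.56 in R1 cells. The exception was Nr0b1, an orphan nuclear receptor, which had a lower call in P19 NTES7 (33.7 ± 0.418) against P19 (607 ± 138, adjusted p = 4.76e-10). Zfp42 and Dppa3 were not called in P19 NTES7 against P19 without P19 array 3.

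Partners of the members were measured as a list of 12 factors and corepressors. In P19 NTES7 against P19, 0 were called higher and 2 lower, beside 1.44% and 1.38% of all genes. In P19 against R1, 3 were called higher and 1 lower, beside 3.46% and 3.85%. In P19 NTES7 against R1, 0 were called higher and 1 lower, beside 1.68% and 2.84%. Pknox2, a TALE homeobox gene like Meis1, was at 15.5 ± 2.16 in P19 NTES7, 73.2 ± 10.5 in P19 and 8.47 ± 0.758 in R1 cells. It was called lower in P19 NTES7 against P19 (log2 difference -2.24, adjusted p = 9.96e-08) and higher in P19 against R1 (log2 difference 3.11, adjusted p = 9.83e-10). Pbx2, whose product pairs with Meis proteins on DNA, was at 63.3 ± 9.53 in P19 NTES7, 130.5 ± 8.97 in P19 and 51.7 ± 2.55 in R1 cells, with the same calls. Pbx3 was called higher in P19 than in R1 (175 ± 6.52 in P19, 62.6 ± 3.19 in R1, adjusted p = 2.56e-08). Tle4, a Groucho corepressor, was called lower than in R1 in both other lines, at 96.5 ± 11.4 in P19 NTES7, 134 ± 6.16 in P19 and 356 ± 30.9 in R1 cells.

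None of 12 measured paralogues of the members was called in any comparison. At an unadjusted p under 0.05 in limma, 1 was higher and 1 lower in P19 NTES7 against P19, 1 higher and 3 lower in P19 against R1, and 2 higher and 0 lower in P19 NTES7 against R1. In P19 against R1 this p was reached by 23.2% of all genes as higher and 20.2% as lower. Of these paralogues, 10 were below the median of all values in P19 NTES7, 11 in P19 and 11 in R1 cells. Meis2 was at 12.6 ± 1.81 in P19 NTES7, 8.06 ± 0.810 in P19 and 15.4 ± 2.82 in R1 cells, and without R1 array 3 it was called lower in P19 than in R1. Zic4 was at 11.4 ± 1.27 in P19 NTES7, 15.5 ± 1.54 in P19 and 9.94 ± 0.305 in R1 cells, with differences of -0.44 for P19 NTES7 against P19 (adjusted p = 0.0111) and 0.64 for P19 against R1 (adjusted p = 0.000419).

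Early neuroectoderm genes were mostly near background, with 17 of 20 below the median of all values in P19 NTES7, 17 in P19 and 16 in R1 cells. Of these, 0 were called in P19 NTES7 against P19. At an unadjusted p under 0.05 in limma, 2 were higher and 1 lower, beside 14.1% and 17.8% of all genes. In P19 against R1, Nes, the intermediate filament of neural progenitors, was called higher (75.6 ± 11.3 in P19, 28.8 ± 3.98 in R1, adjusted p = 2.54e-06), and Gbx2, a homeobox gene of the hindbrain that also serves naive stem cells, was called lower (15.2 ± 1.29 in P19, 63.8 ± 9.94 in R1, adjusted p = 2.45e-08). The same genes were called in P19 NTES7 against R1 together with En2, which was lower. Of all genes, 3.46% were called higher and 3.85% lower in P19 against R1, and 1.68% and 2.84% in P19 NTES7 against R1. En2 was also called lower in P19 than in R1 without R1 array 3.

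**Figure D4:**
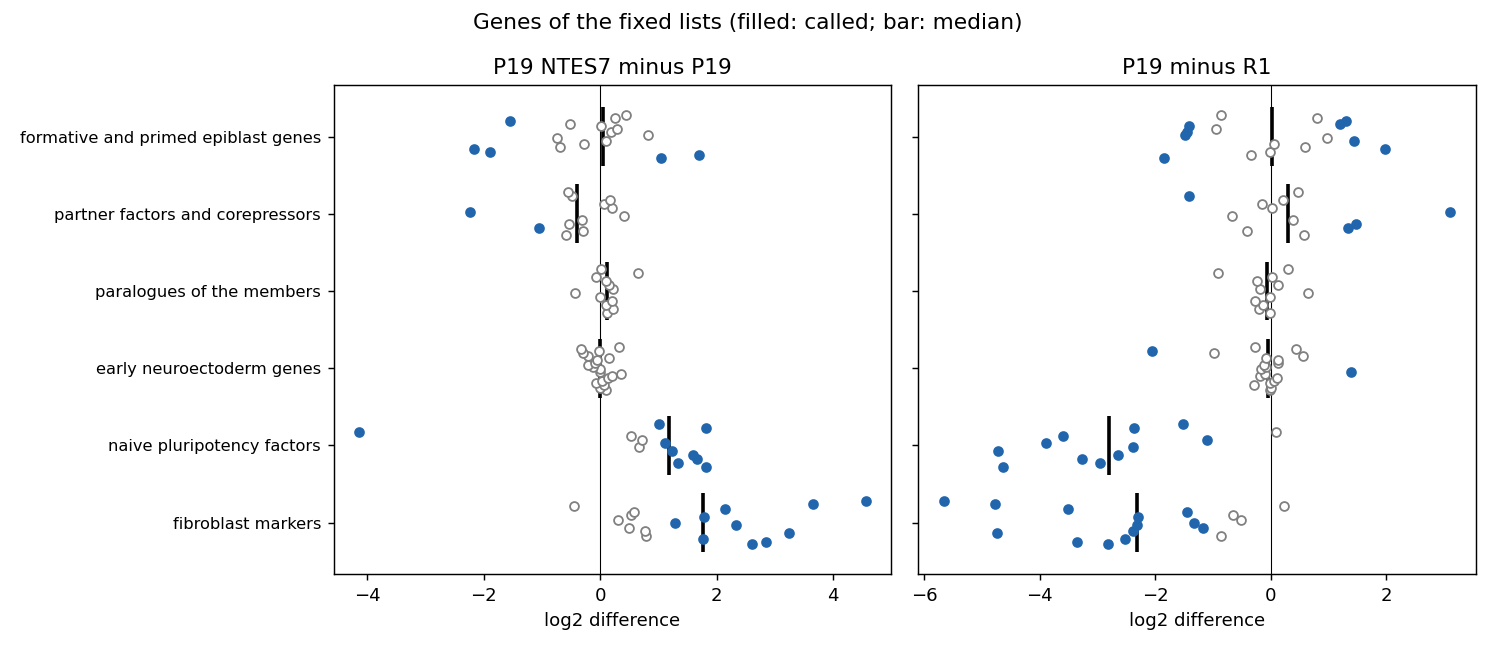
Log2 difference of every measured gene of 6 fixed lists (point) for P19 NTES7 minus P19 and P19 minus R1, where filled points were called and black bars are list medians. Points of the paralogue and early neuroectoderm lists gather near 0, and most naive factors and fibroblast markers lie above 0 in P19 NTES7 minus P19 and below 0 in P19 minus R1.

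For each member called in at least 1 comparison, the genes with the closest pattern were found by the root mean square difference of centred log2 values over the 9 arrays. Nearest to Zic1 were Cntfr, the receptor of ciliary neurotrophic factor (0.186), the metal ion transporter Slc39a8 (0.199) and Pknox2 (0.210). Cntfr was at 32.8 ± 6.88 in P19 NTES7, 167 ± 7.86 in P19 and 17.6 ± 2.20 in R1 cells. Nearest to Otx2 were Stc2 (0.0983), Nadk2 (0.116) and Mfhas1 (0.118), and nearest to the brighter Zic5 set were Nav2 (0.156), Ccnb1ip1 (0.196) and Zfhx2 (0.196).

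Foxd3 had less close neighbours, with Mir363 at 0.244, the MAP kinase phosphatase gene Dusp9 at 0.250 and Mmp25 at 0.281. Pax6 was nearest to Calcoco2 (0.102), Gm10451 (0.104) and Mrpl35 (0.112). Meis1 was nearest to Aldh1a2, which makes retinoic acid (0.0787), and to Cd63 (0.107) and Slc15a1 (0.111). Aldh1a2 was near background in P19 NTES7 (11.0 ± 1.46), P19 (7.49 ± 0.601) and R1 cells (16.6 ± 3.24), so its likeness to Meis1 rests on low intensities.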

How the data were processed

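RNA of P19 NTES7, P19 and R1 cells was measured on 3 arrays per line. Per the labels and the methods, the authors labelled 100 ng of total RNA, hybridised it to Gene 1.0 ST arrays and normalized it by RMA. The deposited values are intensities on a linear scale, with array medians from 16.5 to 17.5. Arrays of a line are biological replicates in the labels. The sources do not say whether these were separate cultures, and a p-value thus reflects only how arrays of a line spread.

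Log2 values of 28853 probe sets were fitted with limma 3.58.1 (R 4.3.3), with 1 mean per line and the 9 arrays in 1 fit. Symbols came from the platform annotation, with 21789 probe sets of 1 symbol, 1621 of several and 5443 of none. The fit was tested on simulated data. The number of arrays limits the precision, with a median SD of a log2 value of 0.132 in P19 NTES7, 0.106 in P19 and 0.121 in R1.

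The members and lists were chosen with earlier results of these data known. The text names all members, up to 4 genes of each list (the 2 largest rises and falls among its called genes, or any called gene of a list of 13 or fewer) and the 3 genes most like each called member. Sall2, Pou5f1, Meis2, Zic4, Dcn, Sparc, Fut4 and the genes that 1 array decides (Sox11, Thy1) were chosen after their values were seen. Alternatives covered the arrays fitted, normalization, floors, filters, variances, thresholds and probe sets. The dimmer Zic5 probe set and lists without P19 or R1 array 3 were added after seeing the data.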

Additional observations from a re-analysis of the deposited data

How the results depend on the processing

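No called difference of a single member changed direction under any alternative setting. The members called were 5 in P19 NTES7 against P19 and 4 in P19 NTES7 against R1 with a fold limit of 1.5. They were 2 in P19 against R1 and 1 in P19 NTES7 against R1 with values under the array median raised to it, and 1 in P19 NTES7 against R1 with the dimmer Zic5 probe set. The mean of both Zic5 sets gave -0.92 in P19 NTES7 against P19. Otx2 was 0.97 higher in P19 than in R1 after quantile normalization, and was not called. Leaving out 1 array gave 2 to 3 members called in P19 NTES7 against P19, 3 to 4 in P19 against R1 and 2 to 3 in P19 NTES7 against R1. Probe sets called ranged over these from 809 to 881, from 2115 to 2259 and from 1289 to 1436. The Foxd3 call in P19 NTES7 against P19 was lost without any 1 of the P19 NTES7 arrays, P19 arrays 1 and 2 and R1 arrays 2 and 3 (log2 differences -0.76 to -1.26), and held without P19 array 3 and R1 array 1. It was also lost in the fit of the 6 arrays compared, after quantile normalization (adjusted p = 0.0108), with values under the array median raised to it (log2 difference -0.82, adjusted p = 0.158), with trend and robust variances and in the methods' one-way test at an unadjusted p. With a fold limit of 1.5, 2312, 4732 and 3426 probe sets were called in the 3 comparisons, against 839, 2135 and 1305.

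Arrays with the same replicate number did not deviate together (correlations of deviations from -0.22 to 0.04). Such correlations cannot show whether the numbers pair the samples, and the main fit used no pairing. With the replicate number as a block, 2, 4 and 2 members and 837, 2136 and 1302 probe sets were called, and Foxd3 was lost (adjusted p = 0.0153). The cause of these changes was not tested.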

Other observations

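Single P19 arrays differed from the other arrays of the line in some members. P19 array 3 differed by 0.46 for Otx2, -0.50 for Zic2, -0.65 for the brighter Zic5 set and -1.05 for Foxd3 on the log2 scale. P19 array 2 differed by 1.09 for Foxd3 and 0.58 for Zic2, and P19 array 1 by -0.46 for Otx2 and 0.36 for the brighter Zic5 set. The summed intensity of the 12 naive pluripotency factors was 761 on P19 array 3 and 1074 and 1029.5 on the other P19 arrays. Nr0b1 was the largest part of these sums, at 449 on P19 array 3 and 702 and 669 on the other P19 arrays. It made up most of the gap between the sums, which say little of the other factors. What these differences contribute to the members' levels was not tested beyond leaving out each array.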
